A study of Mus musculus with 9 samples.

Results

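K7M2 cells treated with mouse platelets were compared with untreated K7M2 cells, 3 libraries a group and 6 of the 9 libraries of the series. Levels are given as FPKM, fragments scaled to transcript length and library size. A minimum of 1 FPKM in 3 or more of the 9 libraries left 11826 of the table's 55401 genes. K7M2 is a mouse osteosarcoma line, labelled wild type, and all groups were grown in medium with fetal bovine serum. Platelet treated cells received mouse platelets. A further 3 libraries came from cells given mouse platelets marked (A/R), a term the labels leave unexplained, and they enter here as part of the estimate of spread and as a side-by-side value. Untreated cells received no platelets. Titles give 24 h for each library, whereas the treatment labels give 24, 25 and 26 h for platelet libraries 1 to 3 and 27, 28 and 29 h for the (A/R) libraries. Neither the number of platelets nor their donors, washing or activation are described, and nothing says whether the 3 libraries of a group were separate cultures, so p-values measure the spread between libraries, which may be technical.

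Platelets are cell fragments without a nucleus that store growth factors in granules and release them, with nucleotides and lipid mediators, when activated. Tumour cells that meet them in the blood can receive signals through receptors for EGF, PDGF and TGF-beta, for thrombin and for lysophospholipids. Many of these receptors feed the ERK kinase cascade, which induces AP-1 transcription factors and, in turn, the phosphatases and adaptors that restrain it. Signals through actin reach SRF with its MRTF cofactors, and YAP with its TEAD partners, whose textbook targets include the CCN matricellular proteins.

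The 6 libraries held 37465049 to 54240592 estimated counts, at about 4 counts per fragment, of which 99.4% to 99.5% fell in the tested genes. On the first principal component of the 6 libraries, with 21.95% of the variance, the platelet libraries scored -1.43, -30.44 and 14.88 and the untreated libraries 10.8, -11.16 and 17.36, so the groups overlapped. Of 12 genes for the identity of an osteosarcoma line, 7 reached 1 FPKM in untreated cells, and the list summed to 2690 to 2830 CPM (counts scaled to library size) with platelets and 2930 to 2970 CPM untreated. These sums did not overlap (two-sided exact permutation p 0.1, the lowest that 3 against 3 allows). Col1a2 was the largest member of the sum, at 1270, 1410 and 1370 CPM with platelets and 1550, 1490 and 1510 CPM untreated. The next largest, Spp1 (569 to 633 and 575 to 624 CPM) and Sparc (602 to 636 and 628 to 662 CPM), overlapped between the groups. Runx2, the osteoblast transcription factor, had 1.92, 4.17 and 3.53 FPKM with platelets and 2.82, 3.71 and 3.80 FPKM untreated. Other members stood apart, of which Col1a2 and Twist1 were chosen after their values were seen. Col1a1 had 8.68 to 10.1 FPKM with platelets and 10.9 to 12.6 FPKM untreated, and Col1a2 91.7 to 102 and 107 to 112 FPKM. Twist1 was higher, at 29.1 to 32.3 FPKM with platelets and 25.2 to 27.5 FPKM untreated. The osteoblast genes Alpl, Ibsp and Dlx5 had 0 counts in each of these libraries.

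Changes with platelets were mostly small in size. With edgeR's quasi-likelihood test, 31 of the 11826 genes had a Benjamini-Hochberg adjusted p under 0.05 (0.262%), 25 of them higher with platelets (0.211%) and 6 lower (0.0507%). DESeq2 called 222 genes (1.88%), 139 higher and 83 lower, all 31 among them. The rises ranged from 1.22-fold to 1.81-fold and the falls from -0.38 to -0.951 on the log2 scale. Over all tested genes the median log2 fold change was -0.0011, the median size of the change was 0.106, and 3.81% of genes moved by at least 1.5-fold. At an unadjusted p under 0.05 there were 1524 genes (12.9%), 805 higher (6.81%) and 719 lower (6.08%). The FPKM values of the groups did not overlap in 2286 genes (19.3%), with platelets above untreated in 965 (8.16%) and below in 1321 (11.2%). A fitted change of at least 2-fold was seen in 56 genes that were higher and 74 that were lower, and edgeR called 0 of these 130 (smallest adjusted p 0.0915; 55 at an unadjusted p under 0.05), limma 0 and DESeq2 14. Of the 130, 117 varied by at least 2-fold within a group and 80 had predicted or clone names. The called genes instead varied little, with a median coefficient of variation of 3.52% in platelet libraries and 4.39% in untreated libraries, against 5.54% and 6.07% over genes with an FPKM of at least 5. The test weighs a change against the spread between these same libraries. A low spread and groups without overlap in called genes therefore come with the call and are no separate support for it.

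**Figure D1:**
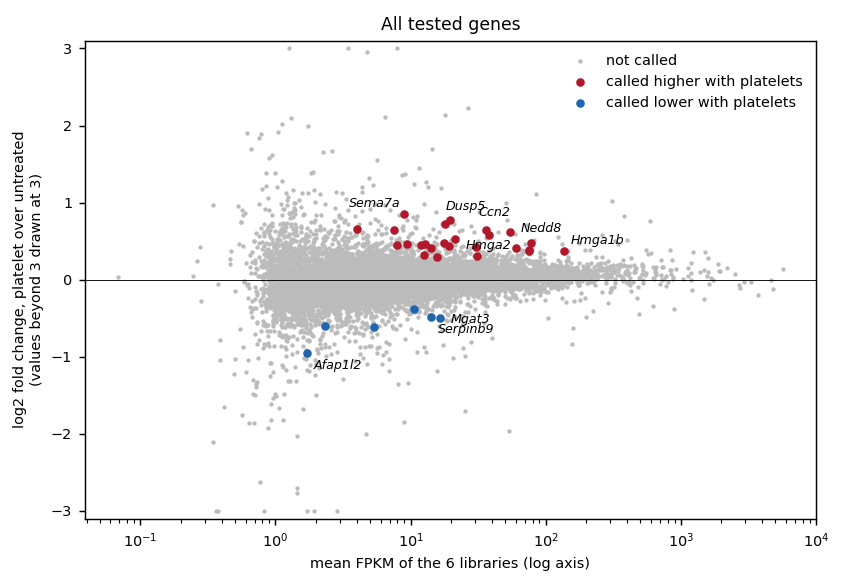
Each point is 1 of 11826 tested genes, with the mean FPKM of the 6 libraries on a log x axis and the log2 fold change of platelet over untreated on the y axis. The 25 genes called higher (red) and 6 called lower (blue) lie inside a 2-fold change, while genes beyond it are mostly of low level and uncalled.

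Calls depended on the libraries. Without 1 of the 9 libraries in turn, 18 to 26 genes were called, with the lowest count without platelet replicate 3, and 13 of the 31 were called in each of those 9 fits. These were Hmga2, Hbegf, Ccn2, Ccn1, Trib1, Ankrd1, Afap1l2, Plaur, Sema7a, Fhl2, Mgat3, Hmga1b and Serpinb9. In the 6 libraries of the comparison alone 18 genes were called, 16 of them among the 31. The 15 that missed the threshold there were Serpinb9, Lima1, Fosl1, Dusp5, Prkg2, Flcn, Dusp6, Nob1, Ptpn22, Slc25a33, Pvr, Nedd8, Parp9, Denn2b and Tspan9. All 31 kept their direction in every alternative.

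**Figure D2:**
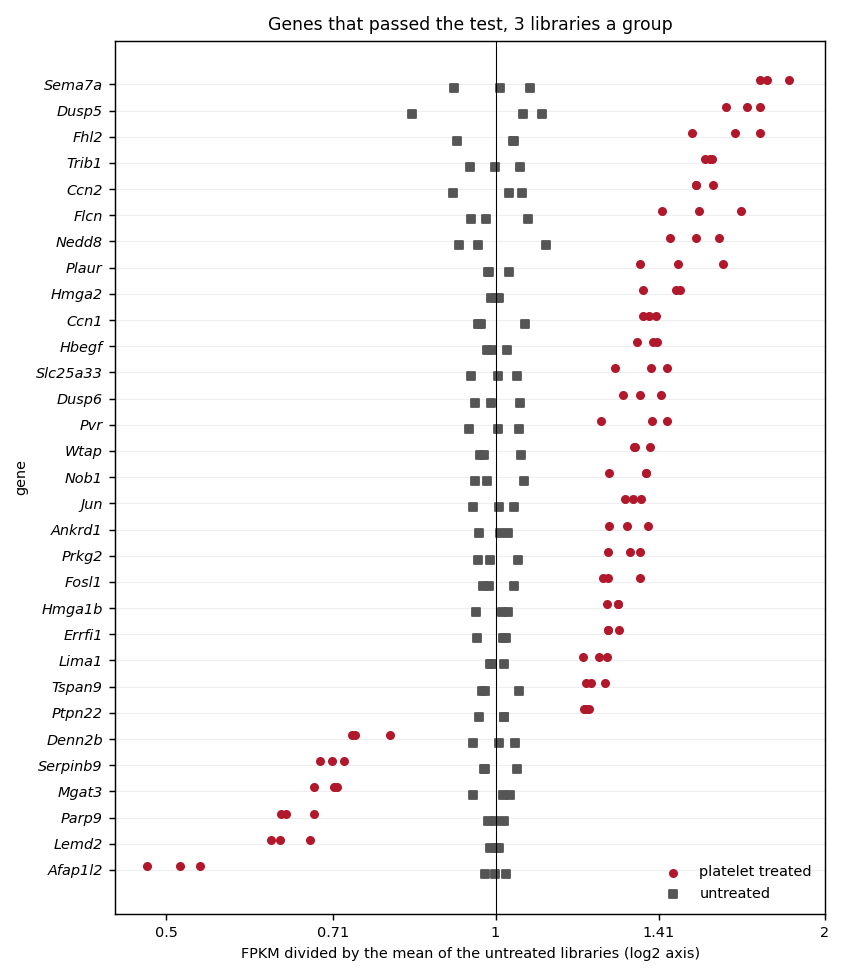
FPKM of each library divided by the mean of the untreated libraries, on a log2 x axis, for the 31 called genes (platelet treated, red circles; untreated, grey squares; 3 libraries each). The platelet libraries stand apart from the untreated libraries in each gene, from Sema7a at the top to Afap1l2 at the bottom.

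A ligand of the EGF receptor shared the smallest adjusted p with Hmga2. Hbegf, which encodes heparin-binding EGF-like growth factor, a membrane-tethered ligand that metalloproteases release, had 20.5, 19.9 and 20.7 FPKM in platelet libraries and 15.1, 14.6 and 14.5 FPKM in untreated libraries. Each platelet library was above each untreated library, and the log2 fold change was 0.48 ± 0.04 (SE, adjusted p 0.00529). In bulk RNA, fewer cells of a type and less RNA per cell cannot be told apart. Ereg, epiregulin, another ligand of the receptor, had 16.3, 16.1 and 17.3 FPKM with platelets and 13.1, 12.6 and 12.4 FPKM untreated. It stood above untreated without overlap, as did 8.16% of all tested genes, but missed the threshold (0.39, adjusted p 0.0784). Areg, amphiregulin, stood near 1 FPKM with overlapping groups (0.40, adjusted p 0.696). Of the 4 measured ligands, 1 was called (all tested genes, 0.262%), and their median log2 fold change was 0.395, against -0.0011 over all genes. The receptor gene Egfr, chosen after its values were seen, was at -0.13 (adjusted p 0.537).

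Genes that ERK induces and that feed back on the cascade held 3 calls, all higher, among 23 measured members (0.211% of all tested genes were called higher). Dusp5, a nuclear phosphatase of ERK, had 25.3, 23.6 and 24.6 FPKM in platelet libraries and 16, 15.4 and 12.2 FPKM in untreated libraries, a log2 fold change of 0.77 ± 0.10 (adjusted p 0.0177). Dusp6, the cytoplasmic ERK phosphatase, had 14.7, 14.2 and 15.3 FPKM with platelets and 10.7, 10.3 and 11.4 FPKM untreated (0.46 ± 0.06, adjusted p 0.0264). Errfi1, the adaptor Mig-6 that inhibits the EGF receptor, had 84.2, 84.1 and 86.1 FPKM with platelets and 67.9, 63.9 and 67.5 FPKM untreated (0.37 ± 0.04, adjusted p 0.00811). In all 3 genes the lowest platelet library exceeded the highest untreated library, as in 8.16% of all tested genes. At an unadjusted p under 0.05, 10 of the 23 were higher and 0 were lower (all tested genes, 6.81% and 6.08%), and the list's median was 0.133. The call of Errfi1 was lost without platelet replicate 3 (adjusted p 0.0509) and that of Dusp5 without platelet replicate 1 or 3 (up to 0.0745), whereas Dusp6 was called only in the fit without untreated replicate 3 (up to 0.129 in the others).

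Among AP-1 genes, 2 of 11 measured members were called, both higher (all tested genes, 0.211%). Fosl1, which encodes Fra-1, a Fos family member, had 89.7, 83.8 and 82.9 FPKM in platelet libraries and 64.4, 65.3 and 68.8 FPKM in untreated libraries (0.38 ± 0.05, adjusted p 0.0128). Jun had 34.2, 34.8 and 35.4 FPKM with platelets and 27.1, 26.3 and 24.8 FPKM untreated (0.43 ± 0.06, adjusted p 0.0322). Neither gene's groups overlapped (all tested genes, 8.16% higher without overlap). Maff, a small Maf partner, was at 0.35 (adjusted p 0.216), and the list's median was 0.165. At an unadjusted p under 0.05, 5 members were higher and 1 lower (all tested genes, 6.81% and 6.08%). Fos lay below the filter, at 21, 13 and 25 counts in platelet libraries and 22, 16 and 19 counts in untreated libraries, and Egr1 had at most 34 counts; both were picked with their values in view. Fosl1 shares bases with Ccdc85b, which had 20.7, 19.2 and 20.8 FPKM with platelets and 20.2, 22.6 and 42.4 FPKM untreated. Jun shares bases with the antisense gene Junos, whose 2.37 to 2.42 FPKM with platelets lay within its 2.04 to 2.76 FPKM untreated. The call of Fosl1 was lost without untreated replicate 1 or 2 (up to 0.0641), and that of Jun in 7 of 9 such fits (up to 0.138), remaining without (A/R) platelet replicate 1 or 3.

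Of 19 other immediate early genes, Trib1 was called (all tested genes, 0.262%). This pseudokinase, which guides C/EBP-alpha to degradation, had 4.92, 4.9 and 4.84 FPKM in platelet libraries and 2.95, 3.29 and 3.11 FPKM in untreated libraries (0.66 ± 0.07, adjusted p 0.00627). Ptgs2, cyclooxygenase 2, had 42.8, 42.2 and 44.6 FPKM with platelets and 34.8, 34.4 and 38 FPKM untreated. It stood above untreated without overlap, as did 8.16% of all tested genes, but missed the threshold (0.29, adjusted p 0.0784). Srf, the serum response factor itself, had 21.8, 23.2 and 21.4 FPKM with platelets and 18.1, 16.5 and 17.1 FPKM untreated (0.37, adjusted p 0.0784). At an unadjusted p under 0.05, 11 of the 19 were higher and 0 were lower (all tested genes, 6.81% and 6.08%). The median of 0.241 lay above that of the ERK feedback and AP-1 lists.

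**Figure D3:**
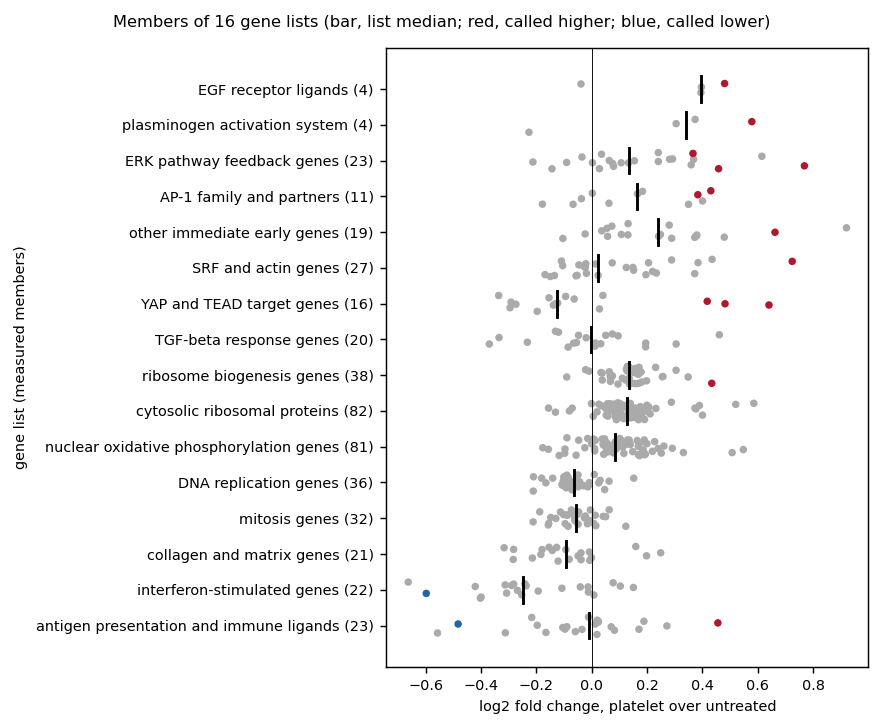
Log2 fold change of platelet over untreated (x axis) for the measured members of 16 gene lists, with 1 point per gene and a black bar at each list's median. Medians run from 0.395 for ligands of the EGF receptor (only 4 measured, 1 called) to -0.247 for interferon-stimulated genes (22 measured, 1 called), and most members are uncalled (grey).

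The receptor of urokinase rose. Plaur, which holds urokinase at the cell surface for plasminogen activation, had 49.2, 41.3 and 44.8 FPKM in platelet libraries and 30, 31.4 and 30.1 FPKM in untreated libraries (0.58 ± 0.06, adjusted p 0.00627). Urokinase, Plau, had 26.5, 24 and 27.2 FPKM with platelets and 19.9, 20.9 and 19.7 FPKM untreated (0.37 ± 0.07, adjusted p 0.0915). Receptor and protease each stood without overlap above untreated, as did 8.16% of all tested genes. Plaur alone was called among the 4 measured members of the system (all tested genes, 0.262%). The median of the 4 was 0.339.

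Of 16 measured targets of YAP and TEAD, 3 were called, all higher (all tested genes, 0.211%). Ccn2, connective tissue growth factor, had 45, 43.4 and 43.3 FPKM in platelet libraries and 29.3, 26 and 30.1 FPKM in untreated libraries (0.64 ± 0.06, adjusted p 0.00627). Its relative Ccn1, a matricellular ligand of integrins, had 91.7, 89.2 and 90.5 FPKM with platelets and 69.6, 63.5 and 63.1 FPKM untreated (0.48 ± 0.05, adjusted p 0.00627). Ankrd1, an ankyrin repeat protein of the nucleus and the sarcomere, had 71.7, 68.5 and 66.1 FPKM with platelets and 50.2, 52.5 and 53.4 FPKM untreated (0.42 ± 0.04, adjusted p 0.00627). In all 3 the lowest platelet library exceeded the highest untreated library, as in 8.16% of all tested genes. The list's median was -0.127, and 7 other members were lower at an unadjusted p under 0.05 (all tested genes, 6.08%). Among them were Lats2 (-0.34, adjusted p 0.34) and Ptpn14 (-0.30, adjusted p 0.20), both chosen after their values were seen.

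Of 27 measured SRF and actin genes, Fhl2 was called (all tested genes, 0.262%). Fhl2, a LIM domain coactivator that MRTF and SRF regulate, had 23.8, 22.6 and 20.6 FPKM in platelet libraries and 14.1, 14.2 and 12.6 FPKM in untreated libraries (0.72 ± 0.08, adjusted p 0.00627). Pdlim5, a PDZ and LIM scaffold of actin filaments, had 5.59, 5.61 and 5.97 FPKM with platelets and 4.17, 4 and 4.66 FPKM untreated and missed the threshold (0.43, adjusted p 0.0627). The list's median was 0.0229, with 9 higher and 1 lower at an unadjusted p under 0.05 (all tested genes, 6.81% and 6.08%). Lima1, the actin cross-linker EPLIN, lies outside the list and had 14.2, 13.5 and 14 FPKM with platelets and 11.1, 11.2 and 11.5 FPKM untreated (0.32 ± 0.04, adjusted p 0.0101). Omitting either platelet replicate 3 or untreated replicate 1 took its adjusted p up to 0.0539, past the threshold. Fhl2 shares bases with Gm8210, a gene whose FPKM ran between 227 and 626 with platelets and between 173 and 262 untreated.

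Promoters of 22 of the 31 called genes were in the RefSeq table (GRCm38.p6), each from 250 bases before to 50 bases after a start. They were searched on both strands for AP-1 (TGANTCA), CRE (TGACGTCA), E-box (CACGTG), TEAD (GGAATG) and the CArG box of SRF. Among all 32851 promoters of that length, 7.81% held the AP-1 letters, 1.79% the CRE, 7.15% the E-box, 14.7% the TEAD letters and 1.63% a CArG box. The AP-1 letters were found for 2 of the 22 genes (Plaur and Hmga1b), the CRE for 2 (Errfi1 and Flcn), the E-box for 1 (Slc25a33), the TEAD letters for 6 (Ankrd1, Ccn1, Denn2b, Errfi1, Ptpn22 and Tspan9) and the CArG box for 3 (Dusp5, Fhl2 and Lima1). None of the letters searched for were found for Dusp6, Jun, Sema7a, Hmga2, Nob1, Serpinb9, Nedd8, Wtap and Afap1l2. Several of the matched genes have more than 1 start in the table, while the shares are per promoter. The promoters printed below were chosen because they hold a match. The 5 promoters printed here, 5′ to 3′ on the gene's strand, show a match, in capitals, in a called gene of the ERK, SRF and plasminogen lists each and in 2 of the YAP list. The matching promoters of Errfi1 and the second of Fhl2, with a CArG box at -96, are not printed.
Dusp5, chr19:53528895-53529194, plus strand: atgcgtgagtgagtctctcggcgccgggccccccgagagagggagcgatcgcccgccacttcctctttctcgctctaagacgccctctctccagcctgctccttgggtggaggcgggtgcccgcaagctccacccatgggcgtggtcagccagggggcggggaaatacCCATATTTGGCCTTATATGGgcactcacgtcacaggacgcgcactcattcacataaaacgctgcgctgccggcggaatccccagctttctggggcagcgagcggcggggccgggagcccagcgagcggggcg
Fhl2, chr1:43163912-43164211, minus strand: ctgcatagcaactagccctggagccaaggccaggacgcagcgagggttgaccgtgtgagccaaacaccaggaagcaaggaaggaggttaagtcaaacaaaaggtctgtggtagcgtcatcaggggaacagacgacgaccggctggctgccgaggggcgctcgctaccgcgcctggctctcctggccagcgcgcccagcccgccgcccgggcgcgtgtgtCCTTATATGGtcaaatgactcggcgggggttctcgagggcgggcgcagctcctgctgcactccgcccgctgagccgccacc
Plaur, chr7:24462233-24462532, plus strand: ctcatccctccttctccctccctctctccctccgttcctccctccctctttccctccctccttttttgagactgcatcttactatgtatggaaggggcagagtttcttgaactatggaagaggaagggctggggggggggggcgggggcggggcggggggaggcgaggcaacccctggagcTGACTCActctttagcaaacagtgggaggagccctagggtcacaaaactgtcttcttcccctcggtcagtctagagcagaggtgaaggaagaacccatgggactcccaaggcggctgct
Ankrd1, chr19:36119795-36120094, minus strand: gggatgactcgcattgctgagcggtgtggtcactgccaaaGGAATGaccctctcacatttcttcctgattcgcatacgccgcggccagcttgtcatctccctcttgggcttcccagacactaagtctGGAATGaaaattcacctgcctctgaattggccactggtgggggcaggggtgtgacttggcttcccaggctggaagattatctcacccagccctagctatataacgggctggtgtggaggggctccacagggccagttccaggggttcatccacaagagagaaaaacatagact
Ccn1, chr3:145649936-145650235, minus strand: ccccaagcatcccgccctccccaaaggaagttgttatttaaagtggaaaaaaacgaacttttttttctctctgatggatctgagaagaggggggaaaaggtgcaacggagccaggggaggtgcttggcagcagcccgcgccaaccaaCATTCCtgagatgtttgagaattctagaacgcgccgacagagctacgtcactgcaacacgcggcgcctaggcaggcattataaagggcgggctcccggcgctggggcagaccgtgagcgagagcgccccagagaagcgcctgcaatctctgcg
Counted from the start, the matches begin at -82 and -72 in Dusp5, where the 2 CArG boxes adjoin, at -31 in this Fhl2 promoter and at -69 for AP-1 in Plaur. The TEAD letters begin at -210 and -123 in Ankrd1 and, as their reverse complement, at -103 in Ccn1. A match describes the letters and is not a binding site.

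Hmga2 and Hmga1b, which encode architectural chromatin proteins made in embryos and in many tumours, were called higher. Hmga2 had 25.8, 23.9 and 25.6 FPKM in platelet libraries and 17.5, 17.4 and 17.6 FPKM in untreated libraries (0.53 ± 0.04, adjusted p 0.00529). Hmga1b had 154, 154 and 150 FPKM with platelets and 122, 121 and 114 FPKM untreated (0.37 ± 0.04, adjusted p 0.0067). Hmga1b is a near-identical copy of Hmga1, whose 50.2, 48.1 and 46.4 FPKM with platelets and 41.5, 42.2 and 46.7 FPKM untreated overlapped (0.16, adjusted p 0.766), and reads may be split between them. Summed, both genes held 400, 394 and 383 CPM with platelets and 319, 315 and 315 CPM untreated.

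A gene of ribosome assembly was called. Nob1, the endonuclease that finishes the small subunit's RNA, had 20.8, 22.5 and 22.5 FPKM in platelet libraries and 15.7, 17.4 and 16.1 FPKM in untreated libraries (0.43 ± 0.06, adjusted p 0.0291). It was the single call among 38 measured genes of ribosome biogenesis (all tested genes, 0.262%). Their median was 0.135 with 24 higher and 0 lower at an unadjusted p under 0.05, where all tested genes had 6.81% and 6.08%. Fbl, the nucleolar methyltransferase fibrillarin, was at 0.30 (adjusted p 0.0784) and Rrs1, an assembly factor, at 0.26 (adjusted p 0.0915). Of 82 cytosolic ribosomal protein genes, edgeR and limma called 0 and DESeq2 called 3; 24 were higher and 0 lower at an unadjusted p under 0.05, and the median was 0.128, with Rplp0 at 0.17 (adjusted p 0.176). The median of these genes over the untreated mean was 0.227, 0.0658 and 0.109 in platelet libraries 1 to 3, highest in library 1. Nuclear genes of oxidative phosphorylation (81 measured, 0 called by edgeR, limma or DESeq2, 9 higher and 1 lower at an unadjusted p under 0.05) had a median of 0.0845. The call of Nob1 was lost in 5 of 9 fits without a library: (A/R) platelet replicate 3, platelet replicate 2 or 3, or untreated replicate 1 or 3 (up to 0.137).

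Of 23 measured genes of antigen presentation and immune ligands, Serpinb9 was called lower and Pvr higher (all tested genes, 0.0507% and 0.211%). Serpinb9, the inhibitor of granzyme B, fell to 12.1, 11.5 and 11.8 FPKM in platelet libraries, against 16.2, 17.4 and 16.2 FPKM in untreated libraries (-0.48 ± 0.05, adjusted p 0.00717). Pvr, CD155, a ligand of the receptors DNAM-1 and TIGIT, had 9.72, 8.46 and 9.42 FPKM with platelets and 7.11, 6.8 and 6.41 FPKM untreated (0.46 ± 0.07, adjusted p 0.0322). Neither gene's groups overlapped (all tested genes, 19.3% without overlap in either direction). Serpinb9b, a paralog whose reads may be shared with Serpinb9, was at -0.22 (adjusted p 0.0885), and Cd274, PD-L1, stood near 1 FPKM in both groups (0.07, adjusted p 0.921). At an unadjusted p under 0.05, 1 of the 23 was higher and 4 were lower (all tested genes, 6.81% and 6.08%), and the list's median was -0.0117. The call of Pvr held only without platelet replicate 2 (up to 0.139 in the other fits), and Pvr shares bases with Gm16184. Ptpn22, a phosphatase best known from lymphocytes, had 17.2, 17 and 17.1 FPKM with platelets and 13.7, 14.4 and 14.4 FPKM untreated (0.29 ± 0.04, adjusted p 0.0322), and its call held only without (A/R) platelet replicate 2 (up to 0.138).

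Of 22 measured interferon-stimulated genes, 1 was called (all tested genes, 0.262%). Parp9, an ADP-ribosyltransferase partner of Dtx3l, fell to 1.8, 1.93 and 1.82 FPKM in platelet libraries, against 2.88, 2.82 and 2.78 FPKM in untreated libraries (-0.60 ± 0.09, adjusted p 0.0491). Its call was lost in all 9 fits without a library (up to 0.184). Trim21, an antibody receptor and ubiquitin ligase, was at -0.42 (adjusted p 0.165), and Gbp7, a guanylate-binding protein, at -0.66 (adjusted p 0.228). At an unadjusted p under 0.05, 13 of the 22 were lower and 0 higher (all tested genes, 6.08% and 6.81%). The list's median was -0.247, or -0.30, -0.248 and -0.145 in platelet libraries 1 to 3 over the untreated mean. Dtx3l, which overlaps Parp9, had 2.06, 2.47 and 2.33 FPKM with platelets and 2.94, 2.52 and 2.79 FPKM untreated. Ifit1, below the filter and picked with its values in view, had 39, 35 and 65 counts with platelets and 12, 19 and 15 counts untreated.

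Sema7a had the largest rise among the called genes. This GPI-anchored semaphorin, which signals through integrins and plexin C1, had 11.8, 11.1 and 11.2 FPKM in platelet libraries and 5.82, 6.83 and 6.42 FPKM in untreated libraries (0.85 ± 0.09, adjusted p 0.00627). Its locus is chr9:57940112-57962865 (GRCm38, plus strand). Of 17 measured semaphorins and receptors it was the single call (all tested genes, 0.262%), and the list's median was -0.0467. Plxnd1, plexin D1, was at -0.27 (adjusted p 0.0885) and Sema4b at 0.25 (adjusted p 0.237).

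Flcn, Nedd8, Slc25a33, Wtap, Prkg2 and Tspan9 were also called higher. Flcn, folliculin, which acts on the Rag GTPases of mTORC1 and restrains TFE3, had 8.45, 9.96 and 9.13 FPKM in platelet libraries and 5.83, 6.37 and 5.64 FPKM in untreated libraries (0.64 ± 0.08, adjusted p 0.0217). Among 28 measured folliculin, TFEB and lysosome genes it was the single call (all tested genes, 0.262%), with a list median of 0.0022. At an unadjusted p under 0.05, 2 were higher and 0 lower, where all tested genes had 6.81% and 6.08%. Nedd8, the ubiquitin-like modifier of cullins, had 69.1, 62.5 and 65.9 FPKM with platelets and 40, 48 and 41.6 FPKM untreated (0.62 ± 0.10, adjusted p 0.0491), with 1 call among 19 neddylation genes, whose median was 0.0358 with 3 higher and 0 lower at an unadjusted p under 0.05. Nedd8 shares bases with Gmpr2, which had 6.19, 5.79 and 6.79 FPKM with platelets and 5.26, 5.18 and 5.21 FPKM untreated. Slc25a33, a mitochondrial pyrimidine nucleotide carrier, had 11.3, 10.1 and 10.9 FPKM with platelets and 7.48, 8.24 and 7.91 FPKM untreated (0.47 ± 0.07, adjusted p 0.0322). Wtap, a subunit of the m6A methyltransferase complex, had 13.6, 14.1 and 13.6 FPKM with platelets and 9.91, 9.84 and 10.7 FPKM untreated (0.45 ± 0.06, adjusted p 0.0217). Prkg2, cGMP-dependent protein kinase 2, had 15.5, 16.6 and 16.2 FPKM with platelets and 12.8, 11.8 and 12.1 FPKM untreated (0.41 ± 0.05, adjusted p 0.0202). Tspan9, a tetraspanin, had 33.8, 34.2 and 35.2 FPKM with platelets and 29.4, 27.2 and 27.4 FPKM untreated (0.31 ± 0.05, adjusted p 0.0495). In all 6 the groups were apart in FPKM, which comes with the call (all tested genes, 8.16% higher without overlap). The calls were fragile. Prkg2 was lost without platelet replicate 2 or 3 or untreated replicate 2 or 3 (up to 0.0893). Flcn was lost in 5 fits, those without (A/R) platelet replicate 1, platelet replicate 2 or 3, or untreated replicate 1 or 3 (up to 0.0968). Wtap lost its call in 6 of 9 fits, all but those without (A/R) platelet replicate 1, (A/R) platelet replicate 2 or untreated replicate 3 (up to 0.0928), Nedd8 in 7, all but those without (A/R) platelet replicate 2 or untreated replicate 2 (up to 0.178), and Slc25a33 in 8, all but that without platelet replicate 2 (up to 0.139), while Tspan9 was lost in all 9 (up to 0.175).

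Afap1l2, Mgat3, Lemd2 and Denn2b were the other genes called lower. Afap1l2, an actin filament-associated adaptor, had 1.21, 1.16 and 1.09 FPKM in platelet libraries, against 2.26, 2.21 and 2.31 FPKM in untreated libraries, the largest fall among called genes (-0.95 ± 0.10, adjusted p 0.00627). Mgat3, which adds the bisecting N-acetylglucosamine to N-glycans, had 13.3, 13.9 and 13.9 FPKM, against 19.8, 18.6 and 20.1 FPKM untreated (-0.49 ± 0.05, adjusted p 0.0067), the single call among 15 N-glycan branching enzymes, whose median was -0.0255. Lemd2, a LEM domain protein of the inner nuclear membrane, had 4.4, 4.13 and 4.05 FPKM, against 6.43, 6.56 and 6.53 FPKM untreated (-0.62 ± 0.09, adjusted p 0.0322). The nuclear envelope list (15 measured) held 1 call, Lemd2 (all tested genes, 0.262%), and had a median of -0.047. Denn2b, a Rab guanine nucleotide exchange factor with a DENN domain, had 8.97, 9.66 and 8.92 FPKM, against 12.2, 11.5 and 12.6 FPKM untreated (-0.38 ± 0.06, adjusted p 0.0491). The call of Lemd2 held only without 1 of the (A/R) platelet replicates 1 and 2 (otherwise up to 0.151), and that of Denn2b in none of the 9 fits (up to 0.187).

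Several lists had 0 calls by edgeR and limma. For their counts at an unadjusted p under 0.05, the shares over all tested genes were 6.81% higher and 6.08% lower. DESeq2 called 2 platelet-facing genes, 1 TGF-beta response gene and 1 collagen or matrix gene, and 0 in the others described next. Of 9 measured receptors (33 listed) for platelet agonists, F2r, the thrombin receptor PAR1, was the most abundant, at 126, 130 and 132 FPKM in platelet libraries and 124, 119 and 124 FPKM in untreated libraries (0.10, adjusted p 0.349), and the list had 2 higher and 1 lower at an unadjusted p under 0.05. Of 18 measured platelet-facing and coagulation genes (26 listed), 5 were higher and 0 lower at that level, with Procr, the protein C receptor, at 0.49 (adjusted p 0.0986), Pdpn, podoplanin, at 0.28 (adjusted p 0.131) and F3, tissue factor, at 0.35 (adjusted p 0.377). Growth factor receptors (17 measured) had a median of -0.0669 with 1 higher and 3 lower, and TGF-beta response genes (20 measured) a median of -0.00425 with 5 higher and 3 lower. Collagen and matrix genes (21 measured) had a median of -0.0936 with 2 higher and 7 lower, among them Col5a1 (-0.32, adjusted p 0.177). Replication genes (36 measured) had a median of -0.0642 with 0 higher and 7 lower, and mitosis genes (32 measured) a median of -0.0571 with 0 higher and 4 lower.

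Summed transcripts of platelets themselves overlapped between the groups. Over the 26 platelet and megakaryocyte genes, the summed level was 628, 642 and 609 CPM in platelet libraries and 636, 668 and 641 CPM in untreated libraries (two-sided exact permutation p 0.3, where 3 against 3 cannot go below 0.1). Sparc, at 143 to 151 FPKM with platelets and 149 to 156 FPKM untreated, made up nearly all of it. Without Sparc and Thbs1, a choice made after seeing the data, the sum was 6.52, 4.56 and 4.83 CPM with platelets and 6.84, 5.33 and 4.64 CPM untreated (exact permutation p 0.6). Tubb1, Gp6, Gp9, Clec1b, Treml1, P2ry12 and Cmtm5 had 0 counts throughout the 6 libraries; at 3 fragments, or 12 counts, the limit is 0.32 CPM in the shallowest. Gp5, picked with its values in view, had 8, 6 and 4 counts with platelets and 0, 0 and 0 counts untreated, all under that limit. Ppbp had 2.79, 2.59 and 2.56 FPKM with platelets and 3.58, 3.52 and 2.70 FPKM untreated. Pf4 had 6, 3 and 2 counts with platelets and 12, 15 and 0 counts untreated. Both overlapped between the groups. The 21 leukocyte and macrophage genes summed to 2700, 2880 and 2700 CPM with platelets and 2970, 2830 and 2920 CPM untreated (exact permutation p 0.2). Csf1r, with 400, 430 and 403 FPKM with platelets and 447, 422 and 442 FPKM untreated, made up nearly all of that sum. Of the 4 measured members, 3 had a positive and 1 a negative log2 fold change (median 0.244), and 0 were called. Cd14, chosen after its values were seen, had 54.8, 52.3 and 51.1 FPKM with platelets and 44.2, 49.1 and 44.5 FPKM untreated, without overlap. Ptprc had at most 5 counts per library. Lyz2, a macrophage gene picked with its values in view, had 347 counts in platelet replicate 2 and 12 to 152 counts in the other 5 libraries. The part of cells other than K7M2 in the calls was not tested.

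Set beside cells given (A/R) platelets, the 31 genes took different courses. The contrast of (A/R) platelet over platelet shares the platelet libraries with the contrast described so far, and 4052 of 11826 genes (34.3%) were called in it. Genes called for high or low values in those libraries lean toward a return in it, so its p-values are no separate support. Plaur had 86.3, 85.5 and 84.5 FPKM in (A/R) platelet libraries, against the 41.3 to 49.2 FPKM of platelet libraries (0.96, adjusted p 7.8e-06). Fhl2 (0.90), Ankrd1 (0.57) and Fosl1 (0.50) were also higher with (A/R) platelets than with platelets on the log2 scale, with adjusted p of 3.64e-05, 2.06e-05 and 6.46e-05. Ccn2 was lower, at 20.7, 20.9 and 20.1 FPKM in (A/R) platelet libraries, against 43.3 to 45 FPKM in platelet libraries and 26 to 30.1 FPKM in untreated libraries (-1.06, adjusted p 4.4e-06). Sema7a (-1.14), Nedd8 (-0.76), Dusp6 (-0.35) and Jun (-0.33) were lower too, with adjusted p of 2.65e-05, 0.00037, 0.0024 and 0.003. For (A/R) platelet over untreated, the same edgeR fit did not call Dusp6 (0.11, adjusted p 0.218), Jun (0.10, adjusted p 0.2255) or Nedd8 (-0.14, adjusted p 0.2844). Ccn2 (-0.41, adjusted p 0.0006) and Sema7a (-0.29, adjusted p 0.0296) were lower than untreated. Serpinb9 had 25.2, 26.8 and 27.3 FPKM in (A/R) platelet libraries, against 11.5 to 12.1 FPKM in platelet libraries (1.20, adjusted p 1.4e-06), and Lemd2 was 0.81 higher (adjusted p 0.00018). Mgat3 (-0.95) and Denn2b (-0.78) were lower than with platelets (adjusted p 4.2e-06 and 2.3e-05). By the treatment labels, the added hours and the (A/R) mark cannot be told apart.

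**Figure D4:**
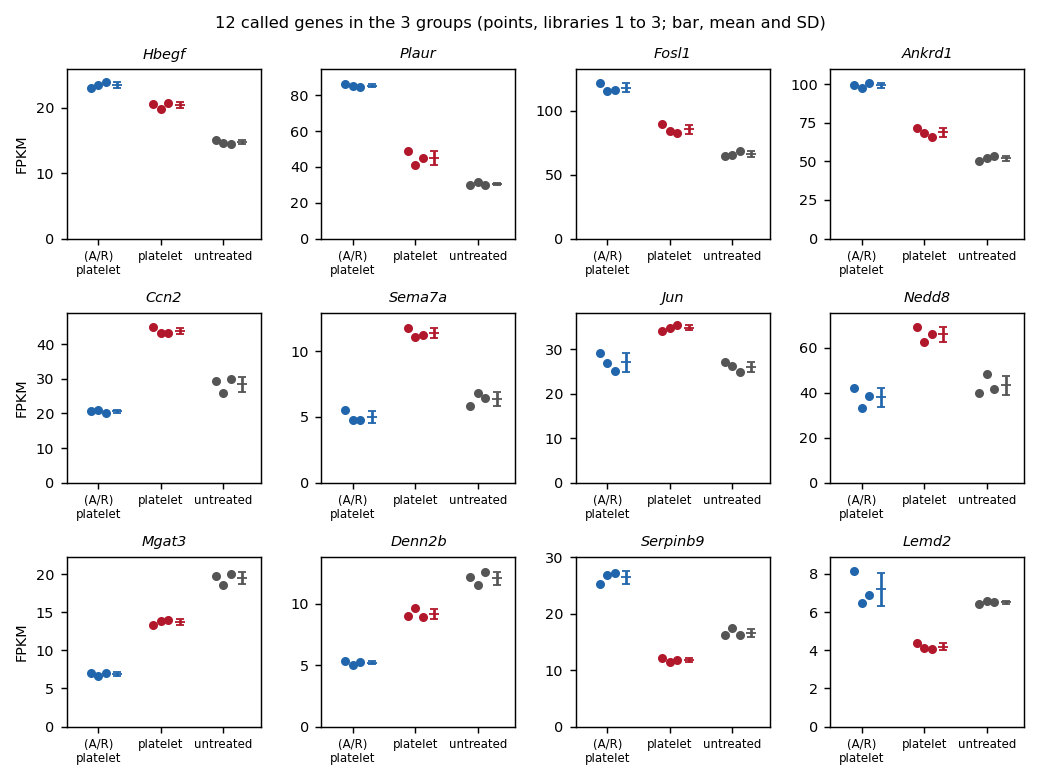
FPKM (y axis, from 0) of 12 called genes in the 3 libraries of each group, (A/R) platelet in blue, platelet in red and untreated in grey, with the mean and SD beside the points. Plaur stands highest with (A/R) platelets, Ccn2 and Sema7a stand highest with platelets, and Serpinb9 is lowest with platelets.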

How the data were processed

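RNA of 9 K7M2 libraries was sequenced after mRNA library preparation, per the labels' protocols. The authors deposited FPKM values, with 0.0001 in place of 0, and estimated counts per gene, which the values show to be about 4 per fragment and whole numbers. Reads were placed on GRCm38 (mm10), per the submitters' processing notes. For the aligner, the counter and the use of strand, what was done is not given in the sources used here, and reads of overlapping genes or close copies cannot be told apart. Samples were grouped by their titles.

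The estimated counts deposited by the authors were tested with edgeR 4.0.16 in R 4.3.3 (quasi-likelihood, TMM scaling, 1 mean per group, 9 libraries in 1 fit) for genes with FPKM of at least 1 in at least 3 libraries, called at an adjusted p under 0.05 (Benjamini-Hochberg over all genes tested). The standard error (SE) is the log2 fold change divided by the square root of F. DESeq2 1.42.0, limma 3.58.1 with pseudocounts of 1 and 0.1, other scalings and filters, left-out libraries and a replicate block were alternatives. Genes without counts got a limit of 3 fragments, which covers counting error only.

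Named genes are all called genes without predicted names, up to 3 members of each list by p, 10 uncalled rises and 10 falls (unadjusted p under 0.05, mean FPKM of at least 5, no overlap), and a set of genes kept whatever their p; others are marked in the text. The members and the 41 lists were chosen with earlier results of these data known, so no list is independent support. Promoter sequences are RefSeq's.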

Additional observations from a re-analysis of the deposited data

How the results depend on the processing

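The 31 calls (25 higher, 6 lower) became 222 with DESeq2 (139 higher, 83 lower; all 31 among them), 18 in the 6 libraries of the comparison alone (15 higher, 3 lower), and 22 without a filter (19 higher, 3 lower). With the replicate number as a block 0 genes were called by edgeR (0 higher, 0 lower; smallest adjusted p 0.0519, 1337 at an unadjusted p under 0.05); same-numbered libraries of different groups did not deviate together (correlations -0.0301 to 0.0517), so the numbers were not taken as pairs. Without 1 library in turn the count was 18 to 26, with 13 to 23 higher and 3 to 8 lower. RLE scaling, library size alone, upper quartile scaling, an FPKM minimum of 5, limma with either pseudocount and counts divided by 4 gave 25 to 33 calls. Serpinb9 lost its call in the 6 libraries alone (adjusted p 0.0519), and the 12 other genes called in each fit without a library held in all 10 other alternatives except the block. With 3 libraries a group, and changes under 2-fold, precision is limited.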

Other observations

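In the pathway names of the authors' deposited table, 236 pathways had at least 20 tested genes, and the ones with the highest and lowest medians were picked after their values were seen. The highest median log2 fold changes belonged to Ribosome (0.115, 131 genes) and Ribosome biogenesis (0.113, 71 genes), and the lowest to ECM-receptor interaction (-0.0915, 30 genes), with 6 higher and 7 lower at an unadjusted p under 0.05. The MAPK signaling pathway, outside that choice and also picked after its values were seen, had 177 tested genes and a median of 0.0108. Dusp5, Dusp6 and Jun were called in it (all tested genes, 0.262%). Osteoclast differentiation had 69 tested genes, of which Fhl2, Fosl1 and Jun were called, and a median of 0.0202.

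Some genes outside the calls showed large but uneven differences. Kxd1, a subunit of the BORC complex of lysosomes, had 9.2, 9.98 and 17.8 FPKM in platelet libraries and 3.72, 5.23 and 5.55 FPKM in untreated libraries (1.36, adjusted p 0.0915). Krcc1 had 4.51, 4.32 and 4.52 FPKM with platelets and 4.72, 13.9 and 16.1 FPKM untreated (-1.36, adjusted p 0.366). Atp6v0c, a subunit of the vacuolar ATPase, had 11.4, 13.2 and 25.6 FPKM with platelets and 34.8, 31 and 34.7 FPKM untreated (-0.99, adjusted p 0.34).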
